A study of Mus musculus with 2 samples.

Results

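The mouse genome carries a large set of genes for potassium channels, and 92 of the 32285 genes listed in the deposited feature table were taken here by their symbols. The rule kept every symbol that starts with *Kcn* and goes on with lower-case family letters and a number, so it holds pore-forming subunits, auxiliary subunits and the Kv channel interacting proteins (*Kcnip* genes). The data came from 1 RNA library and 1 ATAC library made from the same nuclei with the 10x multiome assay, which reads the RNA and the open chromatin of each nucleus. The nuclei came from whole, frozen testes of mouse embryos at E14.5, at which fetal Leydig cells, Sertoli cells, germ cells and interstitial progenitors are all present. The embryos carried *Nr5a1-cre*, in which cre is driven by *Nr5a1*, a gene of somatic gonadal and adrenal cells, together with *Rosa-tdTomato*. These alleles were shared by all nuclei, there was no second genotype or age, and the sources used here do not say how many embryos were pooled. With 1 library of each assay there is no replicate, so no p-value is given. All intervals are exact 95% intervals and cover counting error only.

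Potassium channels let potassium leave or enter a cell and so set its membrane voltage. Voltage-gated channels open when the membrane depolarises, inward rectifiers and tandem-pore leak channels hold the resting voltage, and calcium- or sodium-activated channels follow the ions inside the cell. Auxiliary subunits carry no pore and change the gating or traffic of a pore subunit. In endocrine cells such as Leydig cells and in contractile cells, these currents are known to shape calcium entry.

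To assign nuclei to cell types, 7198 nuclei that passed the quality thresholds were clustered on RNA and chromatin together, with the member genes and the peaks inside them kept out so that no member could make a class. The 12 clusters gave 11 classes, each named from marker genes: 3273 Progenitor-like, 974 Germ-like, 837 Sertoli-like, 794 Leydig-like, 563 Surface epithelium-like, 395 Mesonephric mesenchyme-like, 95 Endothelial-like, 69 Pericyte-like, 68 Immune-like and 45 Erythroid-like nuclei, and 85 nuclei of a cluster led by *Pax8* that was left without a cell type name. The same markers gave the names, so their levels below describe the classes and are no check on the names. The summed steroidogenic markers of Leydig cells (*Cyp17a1*, *Cyp11a1*, *Hsd3b1*, *Insl3*, *Star*) were at 4308 CPM (counts for every 1000000 UMIs of the class) in Leydig-like nuclei and at 251 to 656 CPM in the other classes. The summed germ cell markers were at 1420 CPM in Germ-like nuclei and at most 165 CPM elsewhere. Sertoli cell markers were less exclusive, at 426 CPM in Sertoli-like and 211 CPM in Germ-like nuclei. So were progenitor markers, at 1988 CPM in Progenitor-like, 1135 CPM in Surface epithelium-like and 1053 CPM in Mesonephric mesenchyme-like nuclei. The kept nuclei held 76994664 unique molecules (UMIs, 1 for each captured RNA molecule), and the classes ran from 23898956 UMIs in Progenitor-like down to 405339 in Erythroid-like nuclei, so levels in the small classes are the least precise. Germ-like nuclei were the deepest, with a median of 15504.5 UMIs against 5676 in Immune-like nuclei. Nuclei of over 50000 UMIs, which can hold more than 1 cell, carried 47.2% of the UMIs of Endothelial-like, 37.8% of Immune-like and 24.0% of Germ-like nuclei.

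The 92 members together held 323807 UMIs, 0.421% of all UMIs. Of these, 70 had at least 20 UMIs and were tested, 22 had fewer, and 1 of those 22, the voltage-gated subunit gene *Kcna10*, had 0. At the edge of this minimum stood *Kcnh4* with 20 UMIs inside and *Kcna4* with 19 outside. Most of the RNA came from few genes: *Kcnd2*, *Kcnip4*, *Kcnma1*, *Kcnj3* and *Kcnd3* held 63.7% of the member UMIs. Nuclear RNA is rich in introns, and UMIs followed the genomic span of the gene. Spearman's rho between span and UMIs was 0.68 over the 91 members with a UMI and 0.53 over 27033 genes, as a description of 1 shared library. The median span was 146 kb for the members later found restricted, 38.6 kb for the other tested members and 8.73 kb for the members under the minimum. Levels of 1 gene are therefore compared between classes, and levels of different genes only as CPM per kb of span. Shares of a sum given for a gene are shares of UMIs, in which a long gene can weigh more.

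Leydig-like nuclei had the highest summed level of the members, 8332 CPM [8272 to 8392]. Surface epithelium-like nuclei followed at 5472 CPM, then Mesonephric mesenchyme-like at 4679, Progenitor-like at 4519 and the *Pax8*-led cluster at 4478, with intervals of 4492 to 4546 CPM in Progenitor-like and 4353 to 4606 CPM in *Pax8*-led nuclei that overlapped. Germ-like nuclei were at 2334 CPM and Erythroid-like nuclei lowest, at 1145 CPM. The sums rested on different genes. In Leydig-like nuclei *Kcnip4* alone gave 51.9% of the sum and *Kcnma1* gave 18.4%, in Surface epithelium-like nuclei *Kcnd2* gave 66.9%, in Germ-like nuclei *Kcnc2* gave 28.1%, and in Sertoli-like nuclei *Kcnq5* gave 24.5%.

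**Figure D1:**
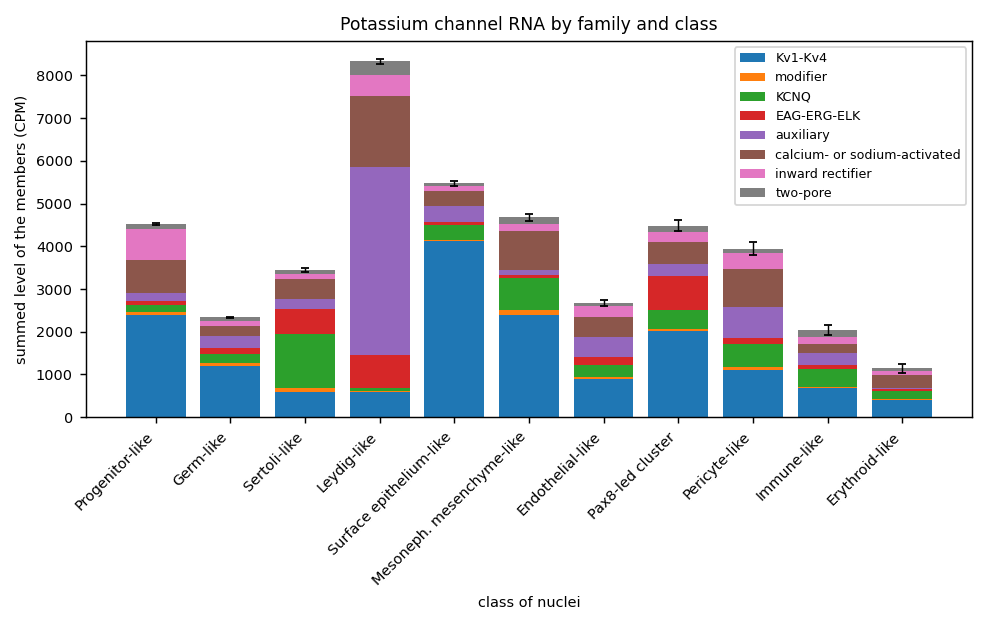
Stacked bars of the summed RNA level of the 92 members in each class, in CPM on an axis from 0, coloured by channel family, with the exact 95% counting interval of the whole sum. The auxiliary block, mostly *Kcnip4*, makes the Leydig-like bar the tallest at 8332 CPM, and the Kv1-Kv4 block, mostly *Kcnd2*, fills most of the Surface epithelium-like bar.

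To find subunits restricted to 1 class, the CPM in the highest class was divided by that in the next class. A gene was called restricted when the lower bound of this ratio was over 2, with at least 10 UMIs and 5 CPM in the highest class. Of the 70 tested members 16 met this, which is 22.9%, against 8.82% of all 19399 genes tested the same way. The median ratio was 1.85 over the members and 1.37 over all genes. The restricted members also had more counts, with a median of 1213.5 UMIs against 225.5 for the tested members that were not restricted, and the part of counts or span in this difference was not tested. By class, the restricted members are given beside the share of all tested genes restricted to that class. Germ-like nuclei had 3 (2.06% of all genes), Leydig-like nuclei 3 (1.04%), *Pax8*-led nuclei 3 (0.593%) and Sertoli-like nuclei 2 (0.67%). Surface epithelium-like (0.366%), Mesonephric mesenchyme-like (0.284%), Pericyte-like (0.268%), Immune-like (1.56%) and Erythroid-like nuclei (1.33%) had 1 each. Progenitor-like (0.067%) and Endothelial-like nuclei (0.588%) had none. Just inside the bound of 2 were *Kcnd2* and *Kcnk13*, both with a lower bound of 2.05, and just outside was *Kcnmb4* at 1.89.

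**Figure D2:**
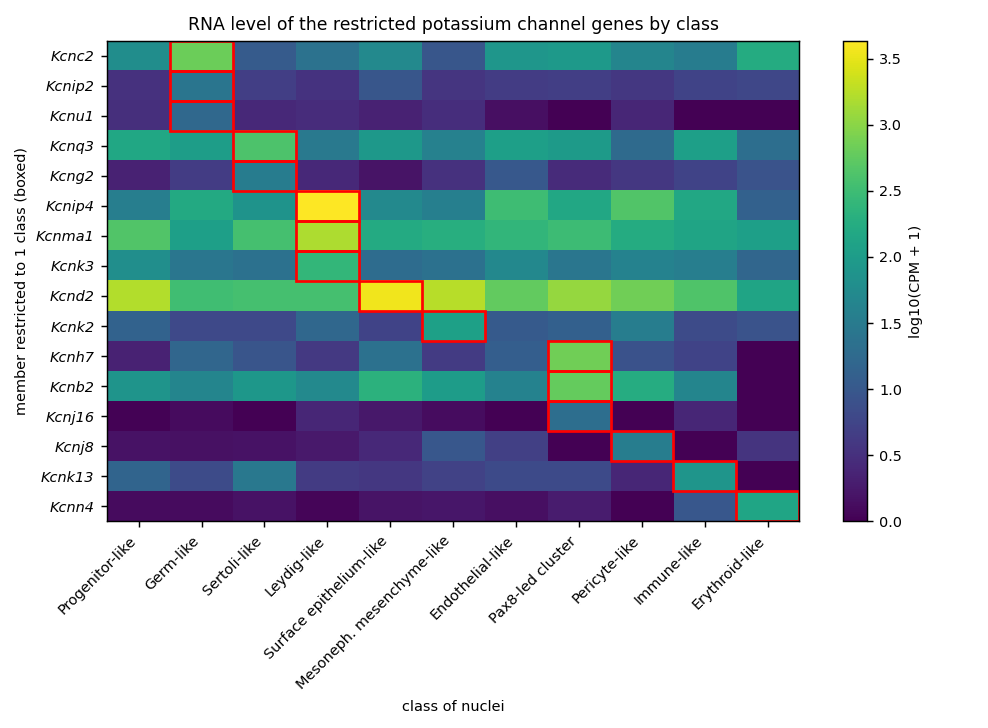
Heat map of the RNA level, as log10 of CPM + 1, of the 16 restricted members (lines) in the 11 classes (columns), with the class of the highest level boxed in red. *Kcnip4* stands far above its other classes in Leydig-like nuclei, while *Kcnd2* is bright in several classes.

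*Kcnip4* encodes KChIP4, a calcium-binding auxiliary subunit of Kv4 channels, and lies at chr5:48389502-49524907 on the minus strand of mm10. Its level was 4327 CPM in Leydig-like nuclei, from 37938 of its 44496 UMIs. It was 442 CPM in Pericyte-like, 316 in Endothelial-like, 160 in Germ-like, 151 in Immune-like, 150 in *Pax8*-led and 73.8 in Sertoli-like nuclei. Surface epithelium-like nuclei had 49.95 CPM, Mesonephric mesenchyme-like 35.9, Progenitor-like 34.5 and Erythroid-like 12.3. The ratio to the next class was 9.79 [8.75 to 11.0]. That next class rested largely on 1 nucleus, which carried 153 of the 310 Pericyte-like UMIs and 70 UMIs of the Leydig markers, where the median Pericyte-like nucleus had 2. Without it the Pericyte-like level was 231 CPM. Single nuclei weighed on lower classes as well. In Surface epithelium-like nuclei 1 nucleus of 101599 UMIs in all carried 146 of the 277 *Kcnip4* UMIs and 73 Leydig marker UMIs (median 2), and without it the level was 24.1 CPM. Leaving out the nucleus with the most *Kcnip4* UMIs gave 84.1 CPM in Immune-like and 88.9 CPM in *Pax8*-led nuclei. With each nucleus thinned to 2000 UMIs, *Kcnip4* was seen in 77.7% [74.7 to 80.6] of Leydig-like nuclei (86.0% before thinning, median 9562 UMIs) and in 5.76% of Germ-like nuclei (23.6% before thinning, median 15504.5 UMIs), with 9.57% as the highest share of the other classes. Per kb of its span the Leydig-like level was 3.81 CPM. The antisense-side genes *5730480H06Rik* and *Gm20700* overlap it, and whether their reads were kept apart by strand is not stated in the sources.

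The other Leydig-like members are pore subunits. *Kcnma1*, the pore of the large-conductance calcium-activated (BK) channel at chr14:23289431-24014491, was at 1537 CPM in Leydig-like, 449 in Progenitor-like and 362 in Sertoli-like nuclei, and between 111 and 307 CPM in the other classes, a ratio of 3.42 [3.34 to 3.51]. *Kcnma1* lost its call with finer clusters and with an automatic doublet threshold, as given below. It was never near 0 in any class, and after thinning it was seen in 84.5% of Leydig-like, 41.0% of Sertoli-like and 8.33% of Germ-like nuclei, against 95.1%, 72.5% and 25.6% before. *Kcnk3*, an acid-sensitive leak channel (TASK-1), was at 254 CPM in Leydig-like and 61.6 CPM in Progenitor-like nuclei, 4.13 [3.86 to 4.41] times higher, with 14.8 to 49.0 CPM elsewhere. Per kb of span *Kcnk3* stood at 6.85 CPM in Leydig-like nuclei, above *Kcnip4* at 3.81 and *Kcnma1* at 2.12.

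*Kcnc2* encodes Kv3.2, a voltage-gated subunit of fast-spiking neurons, and gave the largest share of the member UMIs in Germ-like nuclei. It was at 657 CPM there, from 13479 of its 15919 UMIs, against 89.3 CPM in *Pax8*-led and 79.9 CPM in Endothelial-like nuclei. Progenitor-like nuclei had 60.0 CPM, Surface epithelium-like 50.5, Leydig-like 22.2 and Sertoli-like 9.90. The next class by CPM was Erythroid-like at 173, a ratio of 3.80 [3.01 to 4.88]. Of those 70 Erythroid-like UMIs 69 lay in 1 nucleus, which also held 50 of the class's 67 UMIs of germ cell markers, and without it the class was at 2.74 CPM. After thinning *Kcnc2* was seen in 64.0% of Germ-like nuclei (89.3% before) and in 2.53% of Leydig-like nuclei (10.3% before). *Kcnip2*, the auxiliary subunit KChIP2, was at 24.8 CPM in Germ-like and 8.30 CPM in Surface epithelium-like nuclei, 2.98 [2.20 to 4.13] times higher. *Kcnu1*, the pH-sensitive Slo3 channel known from sperm, was at 16.1 CPM in Germ-like nuclei and at most 2.05 CPM in any other class, 7.87 [5.82 to 10.9] times higher, with 331 of its 428 UMIs in Germ-like nuclei. *Kcnv2*, a silent modifier of Kv2 channels, fell short of the 5 CPM minimum at 3.07 CPM, yet 63 of its 64 UMIs were in Germ-like nuclei. When the nuclei were split more finely, the Germ-like nuclei fell into clusters of 496 and 478 nuclei. In the same order *Kcnc2* was at 733 and 578 CPM, *Kcnip2* at 35.2 and 13.9 CPM, and *Kcnu1* at 25.6 and 6.36 CPM, so these 3 members were all higher in the same cluster.

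In Sertoli-like nuclei the KCNQ family, whose subunits make slow voltage-gated M-type currents, summed to 1262 CPM, against 53.1 CPM in Leydig-like nuclei. *Kcnq3* was restricted, at 415 CPM in Sertoli-like, 146 in Progenitor-like, 104 in Germ-like and 28.6 in Leydig-like nuclei. Its ratio to the next class was 2.84 [2.71 to 2.97]. It stood at 113 CPM in Immune-like nuclei, where 62 of 77 UMIs lay in 1 nucleus of 193940 UMIs that also held 46 of the class's 86 Sertoli marker UMIs, and at 30.7 CPM there without it. *Kcnq5* was highest in Sertoli-like nuclei at 844 CPM but reached 702 CPM in Mesonephric mesenchyme-like and 515 CPM in Pericyte-like nuclei, so it was not restricted. *Kcng2*, another silent modifier of Kv2 channels, was at 32.8 CPM in Sertoli-like and 9.02 CPM in Endothelial-like nuclei, 3.63 [2.34 to 5.95] times higher. *Kcne1*, a small auxiliary subunit of the KCNQ1 channel, had 35 of its 59 UMIs in Sertoli-like nuclei, at 3.50 CPM against 2.76 CPM in *Pax8*-led nuclei.

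*Kcnd2* encodes Kv4.2, the pore of a fast-inactivating A-type current, and had the most UMIs of all members, 81986. It was at 3660 CPM in Surface epithelium-like, 1736 in Mesonephric mesenchyme-like, 1641 in Progenitor-like and 1135 in *Pax8*-led nuclei. The remaining classes ran from 131 CPM in Erythroid-like to 696 CPM in Pericyte-like nuclei. The ratio to the next class, 2.11 [2.05 to 2.17], was the smallest of the 16, and the call was lost in 7 alternative settings of the nuclei or clusters and with a lower bound over 4. *Kcnab1*, a Kv beta auxiliary subunit, was at 190 CPM in Surface epithelium-like and 173 CPM in Pericyte-like nuclei, and its ratio of 1.10 had an interval that spanned 1 [0.912 to 1.34]. In Mesonephric mesenchyme-like nuclei the mechanosensitive leak channel *Kcnk2* (TREK-1) was restricted, at 114 CPM against 34.2 CPM in Pericyte-like nuclei, 3.33 [2.20 to 5.27] times higher. Of the 24 Pericyte-like UMIs 9 came from 1 nucleus. *Kcns3*, a further silent modifier, was also highest there, at 115 CPM, but its ratio of 2.45 had a lower bound of 1.71.

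The *Pax8*-led cluster, led also by *Gabrg3* and *Rmst*, carried the member with the largest ratio of all. *Kcnh7*, the ERG3 voltage-gated channel, was at 706 CPM there, from 767 of its 1375 UMIs, and at 21.6 CPM in Surface epithelium-like and 14.9 CPM in Germ-like nuclei, with 0 UMIs in Erythroid-like nuclei. Its ratio was 32.6 [26.9 to 39.9], and after thinning it was seen in 58.8% of *Pax8*-led nuclei (75.3% before) and at most 1.97% of any other class. *Kcnb2*, the delayed rectifier subunit Kv2.2, was at 592 CPM there and 219 CPM in Surface epithelium-like nuclei, 2.70 [2.45 to 2.98] times higher. *Kcnj16*, the inward rectifier Kir5.1, rested on 21 UMIs in 7 of 85 nuclei, at 19.3 CPM against 1.48 CPM in Leydig-like nuclei, 13.04 [6.23 to 28.3] times higher. After thinning it was seen in 2.35% of *Pax8*-led nuclei.

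Each of the 3 smallest named classes had 1 restricted member, on few counts. *Kcnj8*, the Kir6.1 pore of the vascular ATP-sensitive channel, was at 34.2 CPM in Pericyte-like nuclei from 24 UMIs and at 8.82 CPM in Mesonephric mesenchyme-like nuclei, 3.88 [2.14 to 6.98] times higher. *Kcnk13*, the THIK-1 leak channel known from microglia, was at 77.6 CPM in Immune-like nuclei from 53 UMIs and at 27.6 CPM in Sertoli-like nuclei, 2.81 [2.05 to 3.78] times higher. This call was lost with clusters from ATAC alone, with finer clusters and with stricter minimums on genes and fragments. *Kcnn4*, the intermediate-conductance calcium-activated channel known in red cells as the Gardos channel, was at 138 CPM in Erythroid-like nuclei, from 56 UMIs in 30 of 45 nuclei, and at 8.78 CPM in Immune-like nuclei. Its ratio was 15.7 [6.79 to 44.7], and it was under 1 CPM in each of the other classes. After thinning it was seen in 34.1% of Erythroid-like nuclei (66.7% before, median 6554 UMIs) and in at most 1.54% of any other class. Nuclei with over 0.5% of UMIs from haemoglobin genes had been removed, so this class holds only the erythroid nuclei under that limit.

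**Figure D3:**
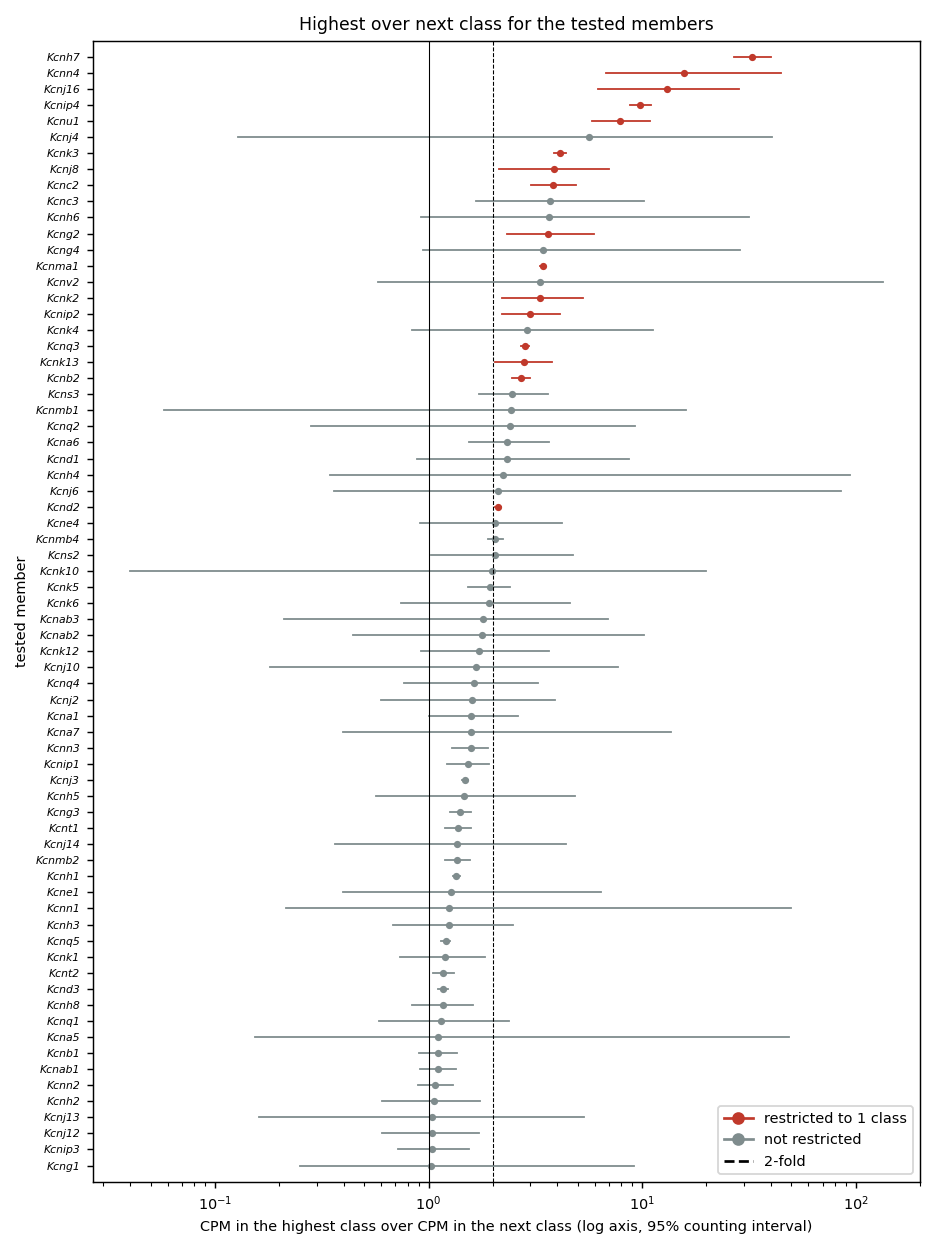
Ratio of the CPM in the highest class to that in the next class for the 70 tested members, on a log axis, with exact 95% counting intervals. The 16 restricted members (red) have their whole interval above the dashed line at 2, led by *Kcnh7* at 32.6, and *Kcnj4* has a high ratio with an interval that reaches below 1.

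Within the listed complexes, the levels of pore and auxiliary subunits are given side by side. For Kv4 channels, the pores *Kcnd2* and *Kcnd3* were highest in Surface epithelium-like and Progenitor-like nuclei, and *Kcnd3* was at 560 CPM in Progenitor-like and 477 CPM in Mesonephric mesenchyme-like nuclei. In Leydig-like nuclei, where *Kcnip4* was highest, these pores were at 368 and 90.3 CPM. Among the other interacting proteins, *Kcnip1* was highest in Surface epithelium-like nuclei at 19.8 CPM, and *Kcnip3* was at 43.9 CPM in Progenitor-like and 42.4 CPM in Immune-like nuclei, a ratio whose interval spanned 1 [0.716 to 1.55]. The Kv4 partners outside the rule, *Dpp6* and *Dpp10*, were highest in Leydig-like nuclei, at 101 and 38.4 CPM, against 82.8 and 25.0 CPM in Progenitor-like nuclei. For the BK channel, *Kcnmb4* peaked in Sertoli-like nuclei at 118 CPM, *Kcnmb2* in Surface epithelium-like nuclei at 51.8 CPM, and *Kcnmb1* had 22 UMIs in all. Of the further BK partners, *Lrrc26* had 0 UMIs, *Lrrc52* had 11, all in Surface epithelium-like nuclei, *Lrrc38* had 24 and *Lrrc55* had 77, and the last 2 were at most 0.541 and 2.15 CPM in any class. For the ATP-sensitive channel, the sulfonylurea receptor *Abcc9* was restricted to the same class as *Kcnj8*, at 436 CPM in Pericyte-like and 85.1 CPM in Endothelial-like nuclei, 5.13 [4.27 to 6.16] times higher, while the other pore, *Kcnj11*, had 3 UMIs. *Kcnq1* was at most 13.7 CPM, in Endothelial-like nuclei, and its auxiliary genes *Kcne2* and *Kcne3* had 5 and 7 UMIs and *Kcne4* had 63. The long noncoding *Kcnq1ot1*, which overlaps *Kcnq1* on the opposite strand, was at 1541 CPM in *Pax8*-led and 1367 CPM in Leydig-like nuclei. In Leydig-like nuclei *Kcnq1* itself was at 2.51 CPM. Whether reads of the pair were kept apart by strand is not stated in the sources.

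By family, 3 of 11 tested Kv1-Kv4 subunits were restricted, 1 of 7 silent modifiers, 1 of 5 KCNQ subunits, 1 of 8 EAG-ERG-ELK subunits, 2 of 12 auxiliary subunits, 3 of 8 calcium- or sodium-activated subunits, 2 of 10 inward rectifiers and 3 of 9 tandem-pore subunits, against 8.82% of all tested genes. The counts per family are too small to be read against that share. The 22 members under the minimum had 0 to 19 UMIs each. Over all 70 tested members, restricted or not, the highest class was Germ-like for 12, Sertoli-like for 10, Leydig-like for 9, Surface epithelium-like for 7 and Progenitor-like for 5. Among all tested genes those classes held the highest level of 19.3%, 7.62%, 8.41%, 4.68% and 2.75%, in the same order. *Pax8*-led, Pericyte-like and Mesonephric mesenchyme-like nuclei each held the highest level of 6 members (8.57%), against 8.25%, 7.16% and 4.34% of all tested genes. Erythroid-like and Immune-like nuclei each held that of 4 (5.71%), against 20.7% and 12.6%, and Endothelial-like nuclei that of 1 (1.43%), against 4.21%.

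Some members with many UMIs were shared between classes. *Kcnj3*, a G protein-gated inward rectifier (GIRK1) that held 96.6% of the inward rectifier UMIs, was at 724 CPM in Progenitor-like nuclei, followed by Leydig-like nuclei at 488 CPM, with 76.5 to 341 CPM elsewhere. *Kcnh1*, a voltage-gated subunit of the EAG family, was at 748 CPM in Leydig-like and 555 CPM in Sertoli-like nuclei, and at 31.0 to 172 CPM elsewhere. *Kcns2*, a silent modifier, was highest in Progenitor-like nuclei at 23.3 CPM against 11.4 CPM in Pericyte-like nuclei. Chosen after its values were seen, the sodium-activated channel gene *Kcnt2* was at 618 CPM in Mesonephric mesenchyme-like and 526 CPM in Pericyte-like nuclei, with at most 126 CPM elsewhere.

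The study asks how Leydig cells arise from interstitial progenitors, so Leydig-like nuclei were set against Progenitor-like nuclei for the 50 members with at least 20 UMIs over both. A member was called where the fold was past 2 and the interval lay on 1 side of 1. In Leydig-like nuclei 11 members (22%) were higher, against 12.6% of 15857 genes, and 17 (34%) were lower, against 15.1%. The median log2 ratio of the members was -0.26, against 0.01 over all genes. The largest ratio was that of *Kcnip4*, 125 [117 to 134]. It was followed by the sodium-activated channel *Kcnt1*, at 36.3 against 1.21 CPM, 29.9-fold higher [20.4 to 45.4]. The tandem-pore subunit *Kcnk12* was at 25.3 against 0.879 CPM, 28.8-fold higher [18.4 to 47.5], and the silent modifier *Kcng4* at 17.0 against 0.921 CPM, 18.5-fold higher [11.7 to 30.3]. These 3 missed the restricted call, *Kcnt1* because it was at 49.8 CPM in Sertoli-like nuclei, *Kcnk12* because it was at 14.6 CPM in Immune-like nuclei, and *Kcng4* because 2 UMIs in Erythroid-like nuclei gave 4.93 CPM there and a ratio of 3.44 [0.937 to 28.7].

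In the other direction *Kcnip3* was 6.41-fold higher in Progenitor-like nuclei [4.94 to 8.47], at 43.9 against 6.84 CPM. *Kcnd3* was 6.20-fold higher [5.77 to 6.67], at 560 against 90.3 CPM. *Kcnq3* was 5.11-fold higher [4.50 to 5.84] and *Kcns3* 4.69-fold higher [3.72 to 5.98], and *Kcnd2* was 4.45-fold higher [4.30 to 4.62]. The Kv4 pores *Kcnd2* and *Kcnd3* were thus lower in Leydig-like nuclei, where *Kcnip4* was higher, but the remaining Kv4 pore did not follow them. That gene, *Kcnd1* (Kv4.1), singled out after its values were seen, was at 13.2 CPM in Leydig-like and 2.97 CPM in Progenitor-like nuclei, 4.45-fold higher [3.29 to 6.07]. *Kcnj3* was 1.48-fold higher in Progenitor-like nuclei [1.44 to 1.54] and was not called. Contractile markers were part of the Progenitor-like class, at 309 CPM against 389 CPM in Pericyte-like nuclei. At a finer resolution a Contractile-like class of 1037 nuclei formed, with *Kcnma1* at 863 CPM [840 to 886] and *Kcnd2* at 2596 CPM [2557 to 2636], while the other Progenitor-like clusters had 254 and 351 CPM of *Kcnma1* and 1164 and 1443 CPM of *Kcnd2*. Against that class the Leydig-like level of *Kcnma1* was 1.78 times higher, and *Kcnma1* was no longer called restricted.

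**Figure D4:**
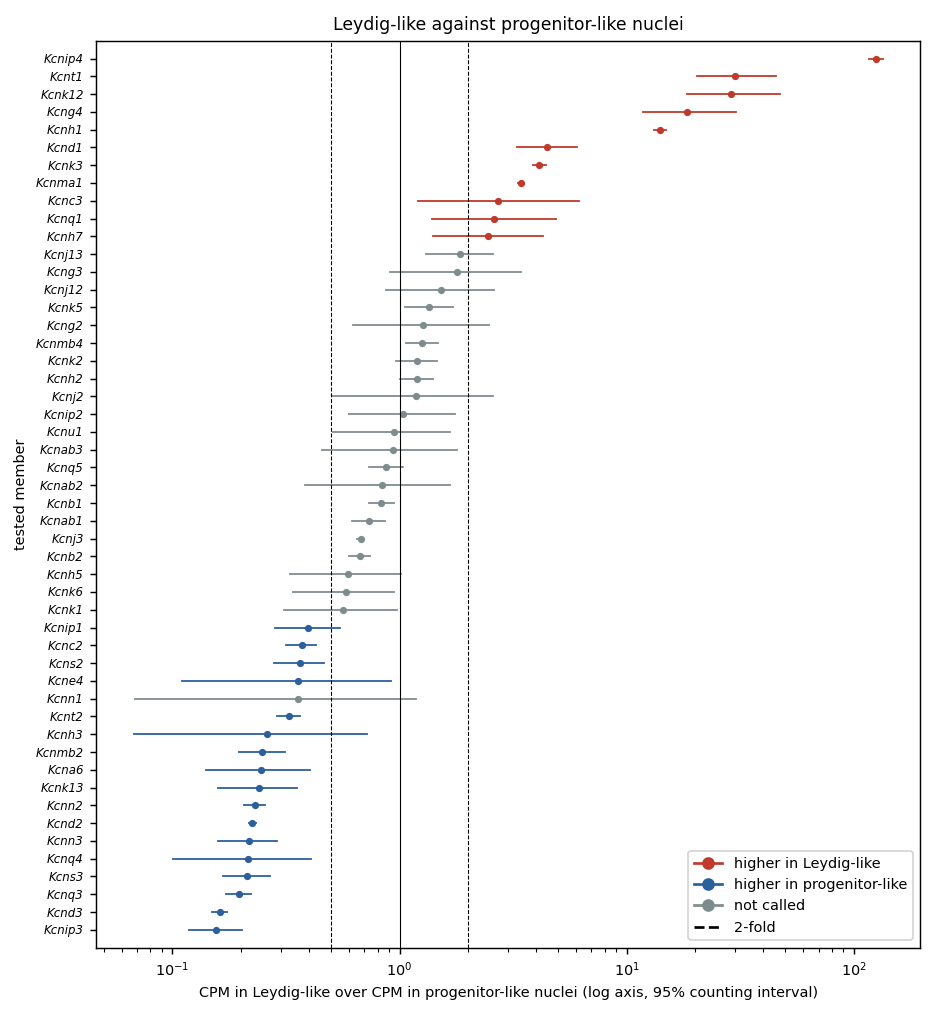
Ratio of the CPM in Leydig-like to that in Progenitor-like nuclei for the 50 tested members, on a log axis with exact 95% counting intervals and dashed lines at 2-fold. The 11 members called higher in Leydig-like nuclei (red) are led by *Kcnip4* at 125, and the 17 called higher in Progenitor-like nuclei (blue) end with *Kcnip3*.

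Genes that work beside the channels were counted from lists. Beside the counts between Leydig-like and Progenitor-like nuclei stand again 12.6% of all genes higher and 15.1% lower, and the lists are too short to be read against these shares. Of the 3 pacemaker channel genes with enough UMIs, 2 were higher in Leydig-like nuclei and none was lower, and *Hcn3* was at 26.1 against 2.64 CPM, 9.91-fold higher. Of the 5 cation-chloride transporters with enough UMIs, 2 were higher in Leydig-like nuclei and none lower. *Slc12a7* was at 139 against 21.6 CPM, 6.43-fold higher. Of the 6 channel partners with enough UMIs none was called in either direction. *Slc12a2*, the sodium-potassium-chloride cotransporter, was restricted to Germ-like nuclei, at 449 CPM against 182 CPM in Pericyte-like nuclei, and *Atp1b1*, a subunit of the sodium-potassium pump that builds the potassium gradient, to Surface epithelium-like nuclei, at 136 CPM against 44.2 CPM in Sertoli-like nuclei.

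To see whether open chromatin at the start site followed the RNA, ATAC fragments within 1000 bp of the GENCODE start with the most fragments were counted for each restricted member, and scaled to the fragments of the class as CPM are to its UMIs. In 5 of the 16 (*Kcnip4*, *Kcnc2*, *Kcnn4*, *Kcnj8* and *Kcnb2*) the class with the most RNA also had the highest fragment level, against 51.1% of 1561 restricted genes overall. In 5 the interval of that class over all other nuclei lay above 1, against 47.9%. These were not all the same genes. *Kcnd2* was among them at 1.63 [1.03 to 2.47], though its highest fragment level was in Pericyte-like nuclei. *Kcnb2* was not, at 1.57 [0.570 to 3.45] from 6 fragments in its class. The median ratio of the members was 1.26, against 1.90 for all restricted genes. With clusters from RNA alone the 5 with an interval above 1 became 3, and with fragments cut within 250 bp of the start, for the 15 members with enough of them, they were 4. Over all 70 tested members, restricted or not, the order turned. The interval lay above 1 for 28 (40%) of them, against 23.2% of 18391 tested genes, and the class with the most RNA had the highest fragment level for 23 (32.9%), against 28.3%. Their median ratio was 1.43, against 1.20 over all tested genes. *Kcnip4* had 52 of its 149 start-site fragments in Leydig-like nuclei, a level of 16.1 against 2.77 in all other nuclei, 5.81 [4.07 to 8.22] times higher. This held at the start at position 49524907 of chromosome 5. At 3 other starts of the gene, 48889557, 48599682 and 49285659, the ratios were 2.62, 1.19 and 0.471. *Kcnc2* had 126 of 249 fragments in Germ-like nuclei, 4.03 [3.12 to 5.204] times higher. *Kcnn4* had 5 of 44 in Erythroid-like nuclei, 22.6 [6.94 to 57.3] times higher, and *Kcnj8* 8 of 298 in Pericyte-like nuclei, 2.39 [1.02 to 4.77] times higher. For 11 members the interval at the start with the most fragments did not lie above 1. At another start it did for *Kcnip2*, at position 45812291 of chromosome 19, with 2.46 [1.63 to 3.68]. The same held for *Kcnu1* at 25849623 of chromosome 8, on 16 fragments in all, with 3.93 [1.29 to 12.0]. No other start of these members had an interval above 1. These counts cover start sites and leave out peaks elsewhere in the genes. Transposase cuts summed over the peaks of each gene did not always follow the start site. In the class over all other nuclei they ran from 0.589 for *Kcnk2* to 7.27 for *Kcnu1*, without intervals. *Kcnk13* was at 2.86, *Kcnma1* at 0.991 and *Kcnc2* at 0.665, and *Kcnj16* had no peak. *Kcnma1*, with 31 of 351 fragments in Leydig-like nuclei, had a ratio of 1.05 [0.701 to 1.52], *Kcnk3* had 1.25 [0.941 to 1.63], and *Kcnq3* had 0.796 [0.579 to 1.07] in Sertoli-like nuclei. *Kcnh7* and *Kcnj16* had 0 of 63 and 0 of 25 fragments in the *Pax8*-led cluster, with upper bounds of 4.31 and 11.4 on the ratio. At this depth a lower level, or a higher one up to those bounds, could not be told from no difference.

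Of 4 genes chosen here, 3 had a start-site interval above 1 in the class with the RNA over all other nuclei, and *Kcnma1* did not. For *Kcnj8*, 1 of these 3, the level was nearly as high in other classes. The promoter sequences of these 4 genes are shown. They are RefSeq sequences of GRCm38.p6, the same build as mm10, running 250 bases before to 50 after the start, 5′ to 3′ on the strand of the gene, and capitals mark a SOX motif. RefSeq promoters were found for 67 of the 92 members and 11 of the 16 restricted ones. *Kcnc2* is at chr10:112270871-112271170 on the plus strand, *Kcnn4* at chr7:24370013-24370312 on the plus strand, *Kcnj8* at chr6:142571565-142571864 on the minus strand, and *Kcnma1* at chr14:24004156-24004455 on the minus strand.
Kcnc2: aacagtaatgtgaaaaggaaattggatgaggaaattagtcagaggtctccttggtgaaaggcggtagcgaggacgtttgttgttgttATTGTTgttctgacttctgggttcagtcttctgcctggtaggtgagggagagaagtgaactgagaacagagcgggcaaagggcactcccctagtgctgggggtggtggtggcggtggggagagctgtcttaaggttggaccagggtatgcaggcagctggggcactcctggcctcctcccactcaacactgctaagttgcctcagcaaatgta
Kcnn4: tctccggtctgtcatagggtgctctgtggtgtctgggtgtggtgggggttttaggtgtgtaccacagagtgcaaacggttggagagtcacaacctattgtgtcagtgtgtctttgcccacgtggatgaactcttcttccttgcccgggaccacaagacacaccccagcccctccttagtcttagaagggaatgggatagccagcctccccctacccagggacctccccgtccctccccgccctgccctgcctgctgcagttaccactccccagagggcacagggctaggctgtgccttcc
Kcnj8: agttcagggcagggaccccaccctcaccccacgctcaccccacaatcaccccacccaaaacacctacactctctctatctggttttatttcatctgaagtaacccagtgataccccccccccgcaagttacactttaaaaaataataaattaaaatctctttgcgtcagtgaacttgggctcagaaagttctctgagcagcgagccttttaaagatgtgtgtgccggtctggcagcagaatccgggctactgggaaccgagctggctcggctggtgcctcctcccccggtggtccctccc
Kcnma1: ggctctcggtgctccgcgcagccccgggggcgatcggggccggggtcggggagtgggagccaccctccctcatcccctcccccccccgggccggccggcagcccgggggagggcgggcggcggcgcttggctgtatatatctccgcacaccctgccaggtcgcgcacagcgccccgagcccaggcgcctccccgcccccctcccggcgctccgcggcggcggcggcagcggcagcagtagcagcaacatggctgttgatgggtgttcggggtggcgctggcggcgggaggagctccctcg
These were searched on both strands for short motifs, with the share of 32851 promoters of the same length that hold each. The NR5A1 motif, CAAGGTCA, is in 1.56% of them. The motif of GATA factors was searched as AGATAA and is in 11.2%. The motif of SOX factors was searched as AACAAT and is in 10.7%. A GC box, GGGCGG, is in 35.7%. The TATA box was searched as TATAAA and is in 13.6%. *Kcnc2* held 1 SOX match, on the minus strand at position 88, where it reads ATTGTT. *Kcnn4* held 1 GC box, *Kcnj8* none of these motifs, and *Kcnma1* 3 GC boxes, of which a pair overlap, in a sequence of 78% G and C with 36 CpG sites. A match is only a match of letters.

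**Figure D5:**
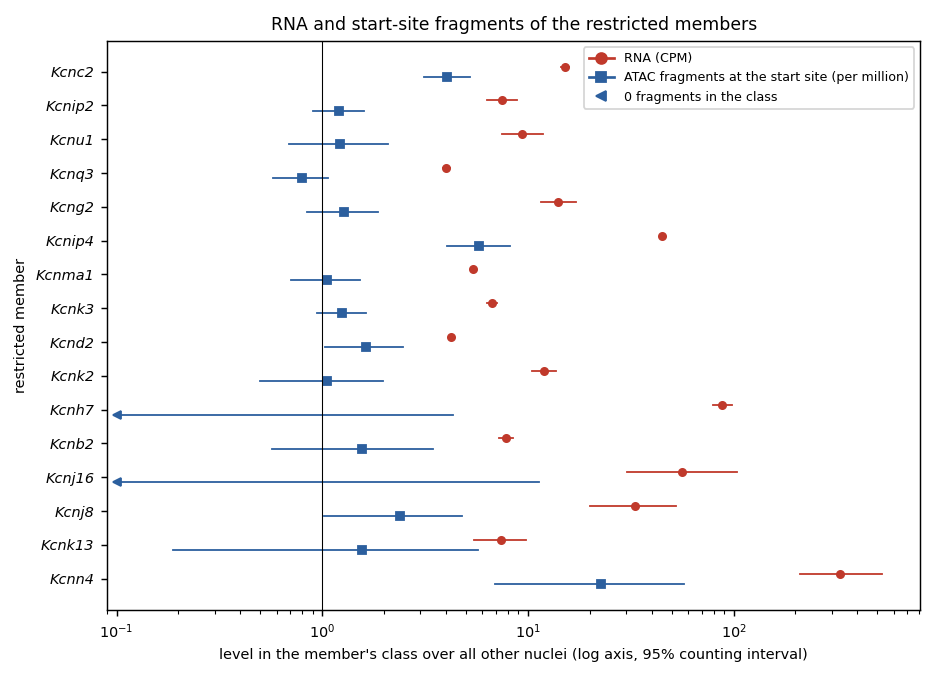
For the 16 restricted members, the level in the class with the most RNA over that in all other nuclei, for RNA (red circles, CPM) and for ATAC fragments at the start site (blue squares, scaled to the fragments of the class), on a log axis with exact 95% counting intervals. The RNA ratio lies above the fragment ratio in each member. The members were chosen on their RNA in that class and not on fragments, so this order is not a result. Arrows at the left mark *Kcnh7* and *Kcnj16* with 0 fragments.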

How the data were processed

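Nuclei of whole E14.5 testes gave 1 RNA and 1 ATAC library. With Cell Ranger ARC 2.0.1, default settings and mm10, the authors produced raw counts (UMIs for genes, transposase cuts for peaks) and a list of unique fragments. The deposited counts had not been normalized, and neither low-quality nuclei nor doublets had been taken out. The 2 libraries shared all 9833 barcodes. Nuclei were kept at over 500 genes, over 250 and under 25000 fragments at peaks, and over 20% of fragments at peaks. They also had to have under 10% mitochondrial, under 10% ribosomal and under 0.5% haemoglobin UMIs, which left 7668. The 470 with the highest Scrublet score (scanpy 1.11.5) were removed as doublets. Ambient RNA was not removed. Seurat 5.3.0 in R 4.3.3 joined RNA (2000 variable genes, 30 components) and peaks by weighted nearest neighbours at resolution 0.3, leaving out 190 member, partner and marker genes and 503 of 109215 peaks. CPM of a class are its summed UMIs over all UMIs of the class. Ratios have exact conditional binomial intervals, sums exact Poisson and shares Clopper-Pearson intervals (scipy 1.17.1). For shares, 75 nuclei under 2000 UMIs were left out. The intervals were also run on simulated data, whose outcome is not given here and is not used as a check on them. They treat UMIs as independent, though 1 nucleus carried most UMIs of some genes in small classes. Members named are the restricted ones, the 2 with the largest ratio in each class of at least 300 nuclei, the 4 with the largest ratio in each direction between Leydig-like and Progenitor-like nuclei, the leading one of each family, and the listed complexes. Members, lists and rules were chosen with earlier results of these data known.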

Additional observations from a re-analysis of the deposited data

Results flagged for a closer look

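Some genes with a *Kcn* symbol fell outside the naming rule and were picked out because they carried signal above the 3 counts that a count of 0 allows. The opposite-strand transcript *Kcnd3os* had 527 UMIs and was highest in Progenitor-like nuclei at 14.3 CPM. *Kcnmb4os2* had 201 UMIs and was highest in Sertoli-like nuclei at 6.90 CPM. Counting by strand is not stated in the sources. Whether reads of these transcripts were kept apart from those of *Kcnd3* and *Kcnmb4* was not tested. *Kcnab3os* had 26 UMIs, highest in Mesonephric mesenchyme-like nuclei at 0.980 CPM. *Kcnrg*, a regulator of Kv channels, had 170 UMIs and was at 9.98 CPM in Pericyte-like nuclei from 7 UMIs. *Kcne1l*, a small auxiliary subunit gene, had 190 UMIs and was highest in Surface epithelium-like nuclei at 4.69 CPM.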

How the results depend on the processing

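No paired analysis was possible because there is 1 library of each assay. The 16 restricted members became 10 with stricter minimums on genes and fragments (7.81% of all tested genes were restricted there). Restricted members numbered 33 with a lower bound over 1 (31.2%) and 5 with a lower bound over 4 (3.23%). In the other settings there were 12 to 20, with 5.35% to 12.1% of all tested genes restricted. With clusters from ATAC alone the count was again 16, but only 8 were the same member in the same class, and 11.8% of all tested genes were restricted. With only classes of at least 300 nuclei it was 20 (11.8% of all tested genes), 10 of them the same, and *Kcng4* and *Kcnk12* were among those gained. *Kcnd2* lost its call in 7 settings of the nuclei or clusters, with ratios of 1.41 at resolution 0.6 to 2.04 without doublet removal. With a lower bound over 4, 11 members lost it, *Kcnd2* and *Kcnma1* among them, and the calls named next are those lost with other nuclei, weights or clusters rather than with other minimums or bounds. *Kcnma1* lost it at resolution 0.6 (1.78) and with Scrublet's automatic threshold (1.77). A Contractile-like class led by *Col4a4* and *Myh11* formed in both. With stricter minimums the cluster with the highest contractile score was led by *Lockd* and *Neil3*, and *Kcnma1* kept its call at 2.99. *Kcnk13* lost it with ATAC alone (1.06), *Kcnq3* with ATAC alone (1.998), and *Kcnk13*, *Kcnj8*, *Kcnj16*, *Kcng2*, *Kcnip2* and *Kcnu1* each in 1 to 3 settings with ratios still over 1. No ratio reversed. No value could be had for *Kcnb2*, *Kcnh7*, *Kcnj8*, *Kcnn4* and *Kcnj16* with ATAC alone or for *Kcnn4* with stricter minimums, because no such class formed. The counts between Leydig-like and Progenitor-like nuclei ran from 8 to 14 higher and from 15 to 19 lower. The shares of all genes in those settings are not given here, so the ranges show only how the counts moved.

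The summed level in Progenitor-like and Leydig-like nuclei was 4577 and 7506 CPM with ATAC alone, 4479 and 8451 with RNA alone, 4197 and 8079 without doublet removal, 4287 and 8845 with the automatic threshold, 4832.5 and 7797 with stricter minimums, 4309 and 8123 with 5% ambient RNA subtracted, and 4482 and 8096 with equal weight per nucleus. At resolution 0.6 the Progenitor-like sum was 4207 CPM. Leydig-like nuclei stayed above Progenitor-like nuclei in each of these settings, and the cause of the shifts was not tested. In the main setting this order rested on *Kcnip4*. It made up 4327 of the 8332 CPM in Leydig-like and 34.5 of the 4519 CPM in Progenitor-like nuclei. Leaving out nuclei of over 50000 UMIs, a setting chosen after seeing the data, gave 14 restricted members. In that setting 9.45% of all tested genes were restricted. *Kcnd2*, *Kcng2* and *Kcnj16* lost their call and *Kcns2* gained one. Without doublet removal the larger Progenitor cluster of 2542 nuclei stayed unnamed. Depth limits the classes of under 100 nuclei, where 1 nucleus could carry most of a gene's UMIs (as also for *Kcnip4* in the 563 Surface epithelium-like nuclei), and the start-site counts, which were under 10 fragments in several classes.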
